A study of Homo sapiens with 6 samples.

Results

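The C/EBP transcription factors were examined in MOLM-14 cells, an established line of human acute myeloid leukaemia that carries an MLL-AF9 rearrangement. The members were every probe set annotated to CEBPA, CEBPB, CEBPD, CEBPE or CEBPG and to no other gene. There were 7 such probe sets for 5 genes, of 54613 probe sets and 19775 genes tested, and 0 probe sets shared one of these symbols with another gene. The tested cells had been kept for 24 h in 10 nM cortistatin A (CA), an inhibitor of the Mediator kinases CDK8 and CDK19, and their controls for 24 h in the solvent DMSO. Each group had 3 samples, plated as wells of the same line, and each sample was hybridised to 1 Affymetrix U133 Plus 2.0 array. The comparison asks how transcript levels of each C/EBP factor stood after a day of Mediator kinase inhibition.

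C/EBP factors are basic leucine zipper proteins that bind DNA as dimers, with themselves, with each other or with other leucine zipper proteins. In the myeloid lineage CEBPA commits progenitors to granulocytes and monocytes, CEBPB and CEBPD act in inflammatory and stress responses, and CEBPE acts late in granulocyte maturation. CEBPG lacks the activation domain of the other members and works through its dimer partners.

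The members did not share one direction. CEBPB was lower in CA in all 3 arrays, by 1.2-fold, and CEBPD was higher in all 3 on its brighter probe set, by 1.15-fold. CEBPA, CEBPE and the brighter probe set of CEBPG lay within 1.02-fold of DMSO. Of the 7 probe sets, 0 passed an adjusted p of 0.05 by limma over all 54613 probe sets, of which 5.01% passed. At an unadjusted p under 0.05 there were 4 of the 7, 3 higher and 1 lower, beside 18.5% of all probe sets (9.09% higher and 9.38% lower). With 1 test per gene, on the probe set with the highest mean, 2 of the 5 genes were called, CEBPB lower (adjusted p = 0.0246) and CEBPD higher (adjusted p = 0.0253), beside 11.1% of 19775 genes (6.64% higher and 4.49% lower). The fold sizes are the same in both fits, which differ in the number of features adjusted over and in the features from which limma estimates the shared variance.

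**Figure D1:**
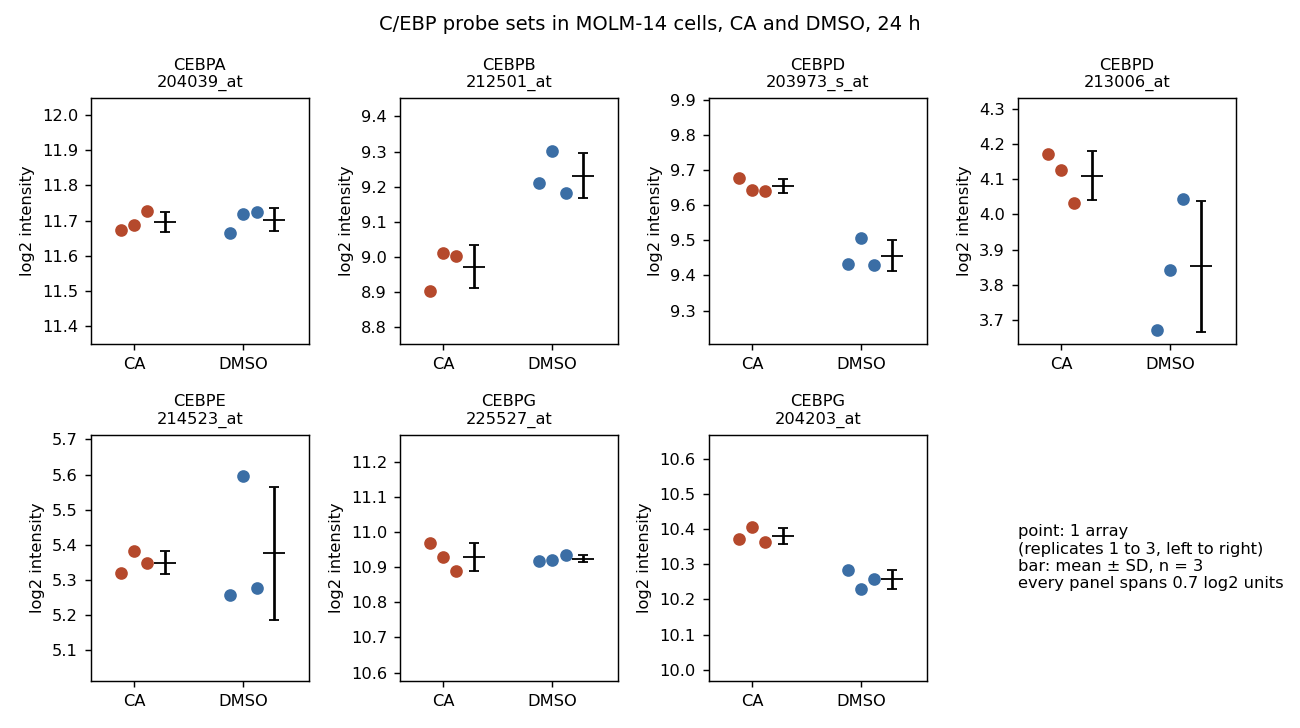
Log2 intensity of the 7 C/EBP probe sets on each array (points, replicates 1 to 3 from left to right), CA on the left and DMSO on the right of each panel, with the mean ± SD (n = 3). Every panel spans the same height. The CA points lie below the DMSO points in CEBPB and above them in CEBPD 203973_s_at and CEBPG 204203_at, and the groups overlap in the other 4 panels.

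CEBPA, which drives entry into the granulocyte and monocyte lineages, was measured by 1 probe set, 204039_at. Its log2 intensity was 11.67, 11.69 and 11.73 in the CA arrays, against 11.66, 11.72 and 11.72 in the DMSO arrays. The groups overlapped. The log2 change was -0.01 (SE 0.05, 95% confidence interval -0.12 to 0.10, adjusted p = 0.96 by limma). That interval reaches from 0.922-fold to 1.07-fold, so a larger change in either direction lies outside it. Across all probe sets, 95.1% differed between the groups by at least as much. The study is known to have followed CEBPA among its genes.

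CEBPA lies on chromosome 19, at chr19:33299934-33302534 of GRCh38.p14, where RefSeq places CEBPG 71174 bases to its right and the divergent noncoding gene CEBPA-DT 286 bases from it. CEBPA-DT, which is not a C/EBP factor and was chosen after its values were seen, was at 7.98, 8.08 and 8.03 in CA and at 8.04, 8.02 and 8.09 in DMSO. Its change was -0.02 (95% confidence interval -0.14 to 0.10), so neither transcript of this divergent pair differed between the groups beyond the spread of the arrays.

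CEBPB, a factor of monocytes and of emergency granulocyte production, had the lowest p of the members. Probe set 212501_at was at 8.90, 9.01 and 9.004 in the CA arrays and at 9.21, 9.30 and 9.18 in the DMSO arrays. All CA values lay below all DMSO values, with 0.169 log2 units between the closest arrays of the groups. The mean was 8.97 ± 0.06 in CA and 9.23 ± 0.06 in DMSO (SD, n = 3 each). The log2 change was -0.26 (SE 0.06, 95% confidence interval -0.39 to -0.12, adjusted p = 0.0522 by limma). Of all probe sets, 7.11% differed by at least this size and 5.14% had a p as low. CEBPB lies at chr20:50190583-50192690 and had no second probe set in the table.

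CEBPD, an acute-phase factor that interleukin-6 and interferon signalling induce in many cells, lies on chromosome 8 and had 2 probe sets. The brighter, 203973_s_at, was at 9.68, 9.64 and 9.64 in the CA arrays, against 9.43, 9.51 and 9.43 in the DMSO arrays. The groups did not overlap, and 0.135 log2 units separated the closest arrays. The log2 change was 0.20 (SE 0.05, 95% confidence interval 0.085 to 0.31, adjusted p = 0.0682 by limma). The other probe set, 213006_at, was at 4.17, 4.12 and 4.03 in CA and at 3.67, 3.84 and 4.04 in DMSO. These values stood near the lower quartile of the arrays (4.12 ± 0.01 in CA and 4.12 ± 0.01 in DMSO), and DMSO replicate 3 reached above the lowest CA value. Its change was also positive, at 0.26 (95% confidence interval 0.03 to 0.49, adjusted p = 0.216), with a SD of 0.07 in CA and 0.19 in DMSO. It was 0.17 without DMSO replicate 1 and 0.35 without DMSO replicate 3. On the mean of both probe sets CEBPD changed by 0.23, and with 1 test per gene on that mean the adjusted p was 0.0514.

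CEBPE, which switches on the genes of secondary granules late in granulocyte development, was dim. Probe set 214523_at was at 5.32, 5.38 and 5.35 in the CA arrays and at 5.26, 5.595 and 5.28 in the DMSO arrays, all of them below the median of the array (5.61 ± 0.02 in CA and 5.62 ± 0.00 in DMSO). DMSO replicate 2 stood above the other 5 arrays. The change was -0.03 (95% confidence interval -0.25 to 0.19, adjusted p = 0.919), and 0.08 without DMSO replicate 2 (adjusted p = 0.511). The gene lies at chr14:23117306-23119255.

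CEBPG, the partner of ATF4 in the amino acid response, was measured by 2 probe sets that differed in their outcome. On 225527_at the log2 intensity was 10.97, 10.93 and 10.89 in the CA arrays and 10.92, 10.92 and 10.93 in the DMSO arrays. These overlapped, and the change was 0.005 (95% confidence interval -0.10 to 0.11, adjusted p = 0.972). On 204203_at the values were 10.37, 10.41 and 10.36 in CA, against 10.28, 10.23 and 10.26 in DMSO. Here the groups did not overlap, although the change was only 0.12 (SE 0.05, 95% confidence interval 0.02 to 0.23, adjusted p = 0.208 by limma). The gene spans chr19:33373709-33382686, and which of its transcripts each probe set reads was not examined.

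**Figure D2:**
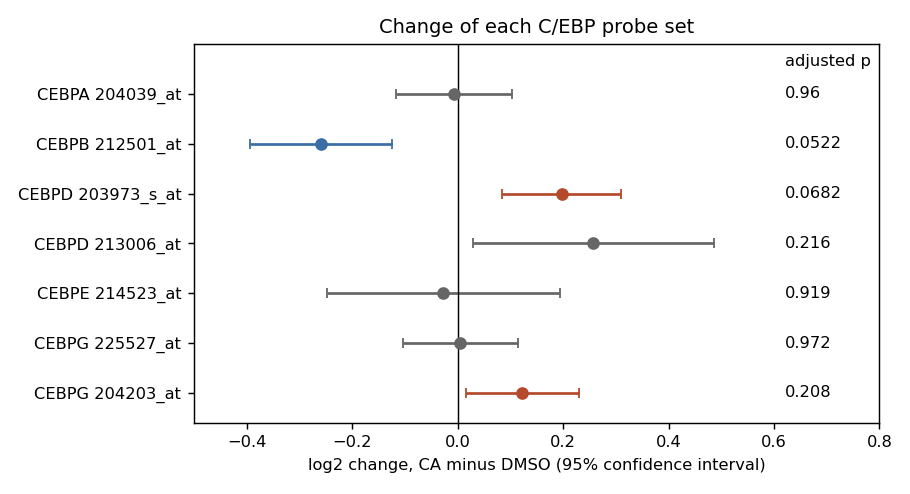
Log2 change (CA minus DMSO) of each C/EBP probe set with its 95% confidence interval from limma and, at the right, its adjusted p over all probe sets. Blue and red mark probe sets whose groups did not overlap, lower and higher in CA, and grey marks those that overlapped. The interval of CEBPB lies below 0, those of both CEBPD probe sets and of CEBPG 204203_at lie above it, and the other 3 span it.

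The groups did not overlap in 3 of the 7 member probe sets, 2 higher and 1 lower in CA, beside 25.1% of all probe sets (12.1% higher and 13.1% lower). The median change of the 7 was 0.005, and that of all 54613 was -0.0096. The median pooled SD within a group was 0.0341 for the members, most of which were bright, against 0.0907 for all probe sets. For the dim members it was larger, at 0.1411 for CEBPD 213006_at and 0.1353 for CEBPE. Members were not compared with probe sets of like intensity.

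Because the members share every array, their changes were also set against each other within arrays. For each of the 10 pairs of genes the difference in log2 intensity was taken on each array, on the probe set with the highest mean, and CA was compared with DMSO. The difference of CEBPB minus CEBPD was -0.77, -0.63 and -0.64 in the CA arrays, against -0.22, -0.20 and -0.25 in the DMSO arrays. It was lower in CA by 0.46 on the log2 scale, a shift of 1.37-fold in the ratio of the signals, and the groups did not overlap. CEBPB shifted against CEBPA as well: CEBPA minus CEBPB was 2.77, 2.67 and 2.72 in CA and 2.45, 2.42 and 2.54 in DMSO. CEBPD minus CEBPG was -1.29, -1.29 and -1.25 in CA and -1.48, -1.42 and -1.50 in DMSO. In the 7 pairs that held CEBPB or CEBPD the groups did not overlap, and the two-sided exact permutation p was 0.1, the smallest that 3 against 3 arrays can give (adjusted p = 0.143 over the 10 pairs), so this design could not pass a threshold of 0.05. These pairs reuse the values of CEBPB and CEBPD, each in the 25.1% of probe sets without overlap, and add no separate evidence. The other 3 pairs, among CEBPA, CEBPE and CEBPG, overlapped, with differences of 0.02, -0.01 and -0.03. The differences describe how 2 signals shifted against each other and do not compare the levels of 2 genes.

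**Figure D3:**
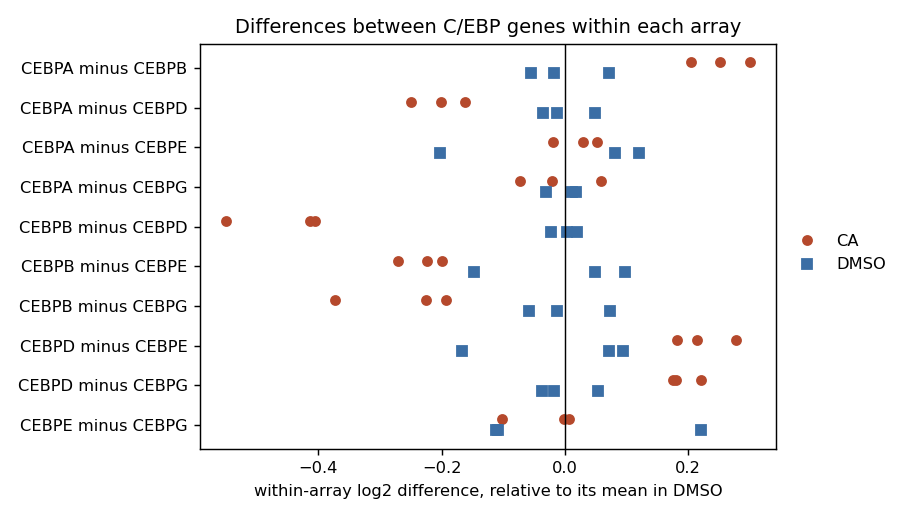
Difference in log2 intensity between 2 C/EBP genes on the same array, for the 10 pairs, each shifted so that its mean in DMSO is 0 (circles CA, squares DMSO, 1 point per array). The 7 pairs that hold CEBPB or CEBPD separate the groups, most widely CEBPB minus CEBPD, and the other 3 overlap.

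The sequence just before the start site is shown for the member with the lowest p, CEBPB, and for 2 members whose brighter probe set hardly differed, CEBPA and CEBPG. RefSeq promoters of GRCh38.p14 were at hand for 4 of the 5 genes, in 6 windows since CEBPB and CEBPG have 2 start sites each. CEBPD was not matched. Each line gives the 120 bases before a start site, 5′ to 3′ on the gene's strand. Capitals mark TATAAA (the TATA box), TGACG (the core of a cyclic AMP response element), TTGCNNAA (a relaxed C/EBP site) and CCAAT, each searched on both strands in the 250 bases before the start.
CEBPB, plus strand, chr20:50190710-50190829: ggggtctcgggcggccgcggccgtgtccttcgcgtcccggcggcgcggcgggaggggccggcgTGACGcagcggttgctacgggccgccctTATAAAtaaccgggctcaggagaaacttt
CEBPA, minus strand, chr19:33302535-33302654: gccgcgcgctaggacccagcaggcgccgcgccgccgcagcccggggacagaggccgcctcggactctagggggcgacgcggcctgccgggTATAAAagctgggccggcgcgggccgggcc
CEBPG, plus strand, chr19:33373589-33373708: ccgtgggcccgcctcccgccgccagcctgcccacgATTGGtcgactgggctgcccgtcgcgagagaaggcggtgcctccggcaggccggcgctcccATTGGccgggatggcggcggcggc

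CEBPA and CEBPB shared a TATAAA, whose first base lay 30 and 29 bases before the start, and 10.7% of 35116 such windows held one. CEBPB alone of the 4 held TGACG, at 57 bases before the start, as did 21.2% of windows. The window of CEBPG that is shown held CCAAT on the opposite strand, at 85 and 24 bases before the start. CEBPB also held one, at 245 bases before the start and so outside the stretch shown, as did 32.0% of windows. No member window held TTGCNNAA, which 9.05% of windows did. All matches of CEBPB lay before the start site shown, the downstream one. Its other window and the second window of CEBPG held no match. The shares given are per window, not per gene. The shared TATAAA stood in one gene that was lower in all CA arrays and one whose groups overlapped. A match here is a description of letters in a window.

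The genes whose values over the 6 arrays ran most like those of each member were sought where a gene's mean log2 reached 6 and its SD 0.1. For CEBPB they were C1RL, a complement-related protease (Pearson r = 0.997), and PRR11, a gene of the cell cycle (r = 0.996). For CEBPD they were the adhesion molecule CNTN4 (r = 0.994) and TRAF3IP1 (r = 0.994), a gene of ciliary transport. As many as 207 of 3803 genes exceeded r = 0.95 with CEBPB and 393 with CEBPD, which both separated the groups. CEBPE ran most like ZNF623 (r = 0.997) and TPT1-AS1 (r = 0.981). Its own values were dim and varied mostly through DMSO replicate 2, at 5.595 against 5.258 to 5.382 on the other arrays. CEBPA was nearest to LINC00475 (r = 0.969) and ZNF34 (r = 0.963), and CEBPG to LHX4-AS1 (r = 0.967) and BICD1 (r = 0.946), but these 2 members varied over the arrays with a SD of only 0.03 each.

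Genes whose products bind, control or follow C/EBP factors were counted next, 1 probe set per gene, where 6.86% of all 19775 genes passed (4.31% higher and 2.55% lower). The lists were not compared with genes of like intensity. Above the upper quartile on every array were 8 of 17 relatives, 15 of 22 upstream regulators and 24 of 27 protein regulators. So were 15 of 24 granulocyte targets and 4 of 23 inflammatory targets. Of 17 relatives measured, which are mostly leucine zipper proteins, 2 rose and 1 fell (median change -0.07, against -0.0034 for all genes). ATF3, a stress-induced repressor, rose by 0.27 on 1 of its 3 probe sets and the AP-1 protein JUND by 0.25 on 1 of 4, while FOS, the partner of JUN in AP-1, changed by -0.38. ATF3 and JUND each also had 1 probe set that was lower and uncalled. The calls of JUND and ATF3 were lost when probe sets whose names end in _x_at or _s_at (those that may match more than 1 transcript) were left out, and with any 1 of the 6 arrays left out 0 to 2 relatives were called. ATF3 and JUND were lost each time (adjusted p of 0.0543 to 0.12) and FOS without DMSO replicate 3 (0.054). DDIT3 (CHOP), which dimerises with CEBPB and keeps it from its usual sites, was at 8.70 ± 0.07 in CA and 8.85 ± 0.05 in DMSO (SD, n = 3 each) and was not called (adjusted p = 0.223 by limma).

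Of 22 upstream regulators measured, 3 rose and 1 fell (median -0.02), and 1 to 3 were called with any 1 of the 6 arrays left out. CSF2RB, the common beta chain of the GM-CSF and interleukin-3 receptors, fell 1.55-fold, with 6.31 ± 0.03 in CA and 6.94 ± 0.06 in DMSO (SD, n = 3 each). IL6ST, the gp130 chain through which interleukin-6 acts on CEBPB and CEBPD, rose by 0.27 on 1 of 7 probe sets. Of these 7, 2 were lower and uncalled. XBP1, a factor of the unfolded protein response, rose by 0.43 on 1 of 2 probe sets. GATA2, a stem and progenitor factor, rose by 0.32 on 1 of 3 probe sets, of which 1 was lower and uncalled. Leaving out any one of the 6 arrays ended the call of GATA2 (0.0551 to 0.122 for the adjusted p). IL6ST kept its call only without DMSO replicate 2, and XBP1 lost its call only without CA replicate 3 (0.0506). Of 27 regulators of C/EBP protein or function measured, 2 rose and 2 fell (median 0.03). TRIB1, a pseudokinase that brings CEBPA to the ubiquitin ligase COP1 for degradation, rose 1.39-fold, with 9.52 ± 0.03 in CA and 9.05 ± 0.02 in DMSO, on 1 of its 3 probe sets. Of these 3, 1 was lower and uncalled. TRIB3, a related pseudokinase, fell by 0.24 on the log2 scale on 1 of its 2 probe sets (adjusted p = 0.0417 by limma). Its other probe set was lower and uncalled. The call of TRIB3 was lost with each of the 6 arrays left out (0.0867 to 0.135), while the other 3 regulators were called each time. The helix-loop-helix inhibitors moved in opposite directions, with ID1 higher by 0.87 and ID2 changed by -0.65. Both were measured only by _s_at or _x_at probe sets, and without such probe sets TRIB1 was the 1 regulator called of 22. Protein levels of C/EBP factors were not measured.

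Genes tied to C/EBP factors in granulocyte development fell where they were called. Of 24 measured, 0 rose and 7 fell (29.2% called, median -0.06). On the mean of a gene's probe sets 2 rose and 9 fell of 24. Among probe sets whose mean log2 reached 6, 2 rose and 9 fell of the 18 genes left. The share called over all features in these fits is not given here. The azurophil granule gene PRTN3 fell 2.03-fold, with 8.06 ± 0.03 in CA and 9.09 ± 0.07 in DMSO (SD, n = 3 each), and its neighbour AZU1 fell 1.87-fold. MS4A3, a marker of granulocyte and monocyte progenitors, changed by -0.62, the ribonuclease RNASE2 by -0.41 and CSF1R, the receptor for macrophage colony-stimulating factor, by -0.39. The other 2, named after their values were seen, were ELANE (-0.39) and the repressor GFI1 (-0.33). Not every azurophil granule gene of the list fell. CTSG was higher in every CA array (0.15) but was not called (adjusted p = 0.122 by limma). With 1 test per gene its adjusted p was 0.0415. The groups overlapped for MPO (0.06). CTSG and MPO were also named after their values were seen. CSF3R, the G-CSF receptor and a CEBPA target, was lower in CA on both of its probe sets. It was not counted among the 7, since its brighter probe set differed by -0.59 with an adjusted p of 0.0837 by limma (SD 0.20 in CA and 0.27 in DMSO), but its dimmer probe set was called (-0.65, adjusted p = 0.0382). With any 1 of the 6 arrays left out 5 or 6 genes of the list were called. CSF1R was not called in any of the 6 fits that left out an array (0.0536 to 0.0894 for the adjusted p), and GFI1 was called only in the one without DMSO replicate 1.

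Inflammatory genes tied to C/EBP factors went both ways, with 3 higher and 3 lower of 23 measured (26.1% called, median -0.01). S100A9 rose 3.59-fold, TNF 3.19-fold and S100A8 2.29-fold. CCL5 fell 2.08-fold and the complement gene C3 1.71-fold, with 7.03 ± 0.09 in CA and 7.80 ± 0.14 in DMSO. The integrin chain ITGAM, named after its value was seen, changed by -0.45 on 1 of its 2 probe sets. Its other probe set was lower and uncalled. Most of this list was dim, with 15 of 23 genes below the median on every array. The target lists were drawn up with earlier results on granule and S100 genes known, so their directions are not independent evidence about C/EBP factors.

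**Figure D4:**
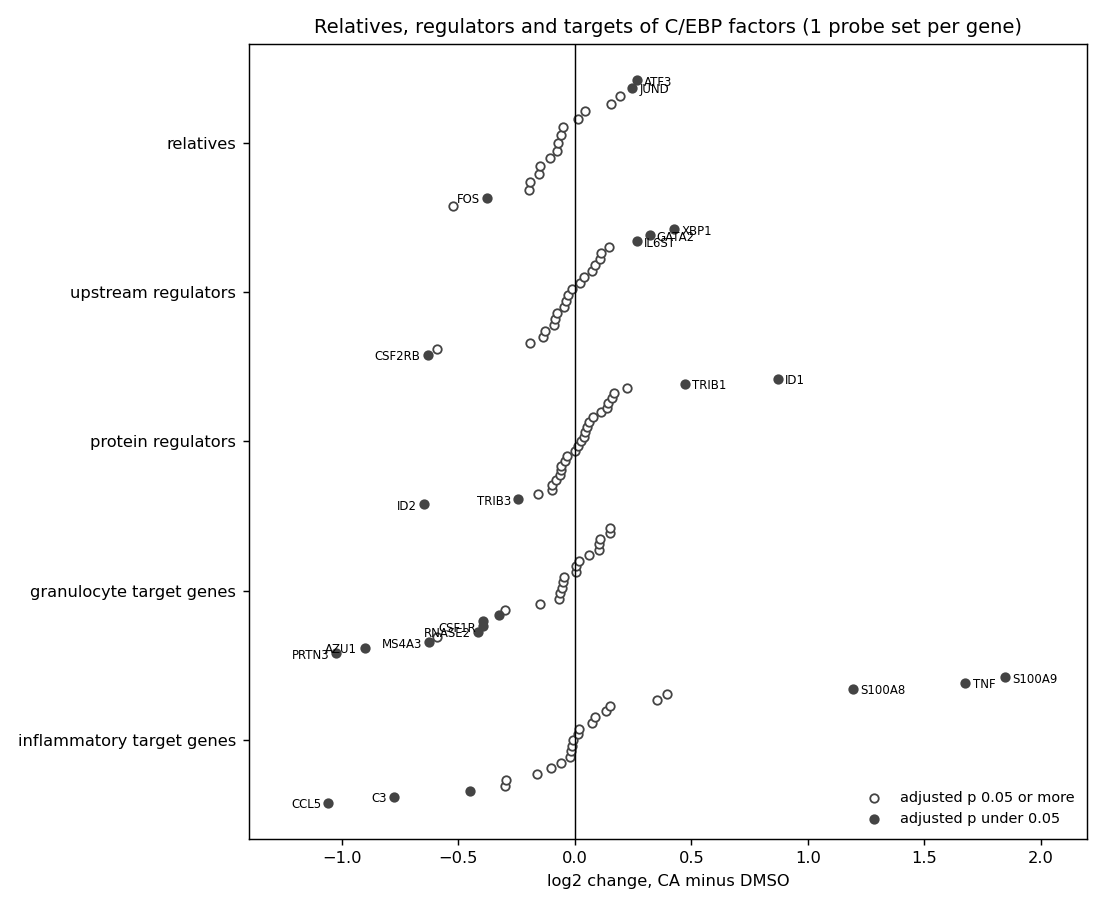
Log2 change (CA minus DMSO) of each measured gene in 5 lists around the C/EBP factors, 1 circle per gene, filled where the adjusted p over all probe sets was under 0.05. Named genes are the called ones with the largest change, up to 5 a list. Called granulocyte target genes lie left of 0, and called inflammatory target genes lie on both sides.

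Several measures of the whole arrays bear on changes as small as these. Arrays of the same group correlated over probe sets at 0.998 and arrays of different groups at 0.996 to 0.997. The mean of 10 reference genes was 12.57 ± 0.01 in CA and 12.60 ± 0.02 in DMSO (SD, n = 3 each; exact permutation p = 0.1), and the 3′ minus 5′ signal of GAPDH was 0.48 ± 0.05 in CA and 0.38 ± 0.03 in DMSO (exact p = 0.1). That of ACTB was larger on every array, at 2.38 ± 0.07 in CA and 2.27 ± 0.125 in DMSO, and the groups overlapped (exact permutation p = 0.3). The reference genes themselves were not all level. The groups did not overlap in 5 of the 10, beside 25.1% of all probe sets, and HPRT1 was called lower (-0.21, adjusted p = 0.043 by limma). With arrays centred by these reference genes the change was -0.23 for CEBPB (adjusted p = 0.0997 by limma) and 0.23 for CEBPD 203973_s_at (adjusted p = 0.0546). The part of the GAPDH and ACTB measures in the results on CEBPB and CEBPD was not tested. The cells carried part of the myeloid markers, with 6 of 10 above the upper quartile on every array, among them FLT3 and LYZ. Above it on every array were also 0 of 7 T and NK cell, 1 of 4 B cell, 0 of 5 erythroid and megakaryocyte and 1 of 7 epithelial or stromal markers. Of the 10 myeloid markers, 2 lay below the median on every array, ANPEP and FCGR1A. SPI1 stood near the median, at 5.59 ± 0.03 in CA and 5.51 ± 0.12 in DMSO. Beside the 6.86% called over all genes, 1 myeloid marker rose and 3 fell of 10, 1 T and NK cell marker rose (GNLY, 0.77) and 1 fell (NKG7, -0.52) of 7, and 1 B cell marker rose (PAX5, 0.42) of 4. These 3 genes were named after their values were seen. None of the 5 erythroid and megakaryocyte or 7 epithelial or stromal markers was called by limma. The mean of the myeloid list was 8.39 to 8.44 in CA and 8.51 to 8.53 in DMSO. The means of the other lists were 5.25 to 5.30 in CA and 5.15 to 5.28 in DMSO for T and NK cells, and 6.45 to 6.53 in CA and 6.36 to 6.41 in DMSO for B cells. They were 5.31 to 5.35 in CA and 5.28 to 5.37 in DMSO for erythroid cells and megakaryocytes, and 5.96 to 6.08 in CA and 5.91 to 5.97 in DMSO for epithelial or stromal cells. In such bulk RNA, fewer cells that express a gene and less RNA per cell cannot be told apart.

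How near CEBPB and CEBPD stood to the threshold shows in the settings tried. Among probe sets whose mean log2 reached 6, adjusted p was 0.0104 for CEBPB, 0.01 for CEBPD 203973_s_at and 0.041 for CEBPG 204203_at. With any 1 array left out it was 0.106 to 0.148 for CEBPB and 0.103 to 0.196 for CEBPD 203973_s_at, while the change stayed between -0.28 and -0.22 for CEBPB and between 0.18 and 0.22 for CEBPD. CEBPA had an adjusted p of at least 0.77 in every setting.

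**Figure D5:**
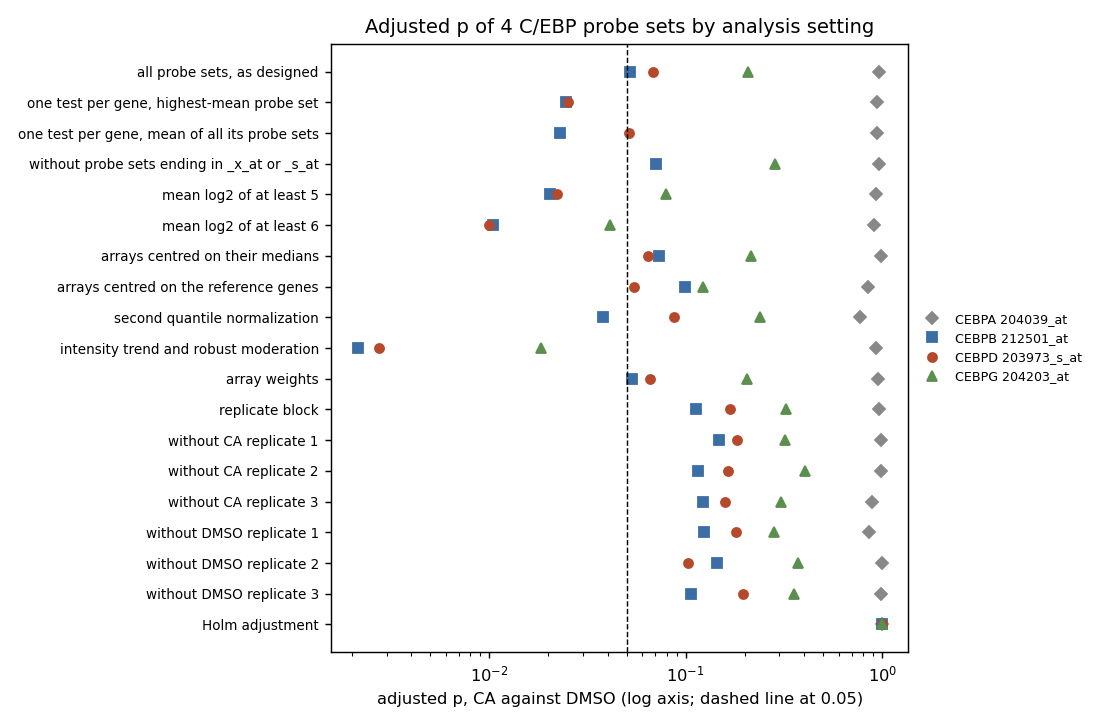
Adjusted p (log axis) for CA against DMSO of 4 C/EBP probe sets under each analysis setting, 1 marker per probe set, with a dashed line at 0.05. Both CEBPB and CEBPD 203973_s_at fall left of the line with 1 test per gene on the highest-mean probe set, with dim probe sets left out and with an intensity trend, and right of it with any array left out. CEBPA stays near the right edge.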

How the data were processed

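The deposited table gives a log2 intensity for each probe set in 6 samples (3 CA, 3 DMSO). Per the submitters' processing notes the authors used RMA and affy, whose versions are not known here; RMA corrects background, quantile-normalizes arrays and compresses fold changes. The labels name 2 RNA isolation kits without assigning them to samples. Arrays have no sequencing depth, and their number limits the precision.

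Control probe sets (62) were left out, and 54613 were compared by limma 3.58.1 in R 4.3.3 (lmFit, eBayes, no covariates, two-sided) with Benjamini-Hochberg adjustment over all of them. Calls were made at an adjusted p under 0.05. No filter on level was applied. The fit was tested on simulated data. The p-values reflect the spread between wells of what the labels give as 1 experiment, and that spread may be technical.

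Symbols came from the platform annotation and were updated through Entrez numbers to GRCh38.p14 (41037 of 41091 single-symbol probe sets). A listed gene was represented by its probe set with the highest mean. Reference genes, 1 list of markers for each of 5 kinds of cells and 5 pathway lists were used. Listed genes without a single-symbol probe set were not analysed here. The rule named all member probe sets, up to 5 called genes per pathway list with the largest change, and the 2 genes most correlated with each member. Members and lists were chosen with earlier results of these data known.

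Pairs of members were compared by an exact permutation test. Alternatives covered the unit of testing, probe set type, level filters, normalization, moderation, array weights, a replicate block, leaving out each array, thresholds and Holm adjustment.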

Additional observations from a re-analysis of the deposited data

How the results depend on the processing

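CEBPB was called lower with 1 test per gene on the highest-mean probe set (-0.26, adjusted p = 0.0246) or on the mean of all probe sets (0.023), at a mean log2 of at least 5 (0.0205) or 6 (0.0104), after a second quantile normalization (-0.27, 0.0379) and with an intensity trend (0.00214). CEBPD 203973_s_at (0.20) was called higher with 1 test per gene on the highest-mean probe set (0.0253), at a mean of at least 5 (0.022) or 6 (0.01) and with the trend (0.00276), and CEBPG 204203_at (0.12) at a mean of at least 6 (0.041) and with the trend (0.0183). Filters and tests per gene adjust over fewer features and also re-estimate the shared variance, and the 2 were not separated. Members called were thus 2 of 5 genes with 1 test per gene on the highest-mean probe set (beside 11.1% of all genes) and 1 of 5 on the mean. Of member probe sets, 2 of 6 and 3 of 5 were called at a mean of at least 5 and 6. The counts were 1 of 7 after quantile normalization, 3 of 7 with the trend and 2 of 7 at an adjusted p under 0.1. Only for the first of these settings is the share over all features given here.

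Signs near 0 turned for CEBPA with arrays centred on medians (0.0026) or by reference genes (0.0257), for CEBPE by reference genes (0.0052) and for CEBPG 225527_at after quantile normalization (-0.0073), which also turned CEBPA minus CEBPE (-0.0179). With 1 array left out, CEBPA ranged from -0.0256 to 0.0044, CEBPE from -0.0868 to 0.0815, CEBPG 225527_at from -0.0145 to 0.0251, CEBPD 213006_at from 0.1668 (without DMSO replicate 1) to 0.3533 (without DMSO replicate 3), CEBPA minus CEBPE from -0.0805 to 0.0807, CEBPA minus CEBPG from -0.0472 to 0.0189 and CEBPE minus CEBPG from -0.0882 to 0.0777.

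Relatives called (3 of 17) were 7 and 5 of 17 with 1 test per gene on the highest-mean and on the mean probe set. They were 1 of 15 without _x_at and _s_at probe sets, and 7 of 16 and 6 of 14 at a mean of at least 5 and 6. Of 17, they were 7 with the trend, 1 with the replicate block, 0 at an adjusted p under 0.01 and 5 under 0.1. By Holm 0 were called, and 0 to 2 with 1 array left out. Upstream regulators (4 of 22) were 7 of 19 at a mean of at least 6 and 7 of 22 with the trend. They were 2 with the block, 1 under 0.01, 0 by Holm and 1 to 3 with 1 array left out. Protein regulators (4 of 27) were 1 of 22 without _x_at or _s_at, 9 of 26 at a mean of at least 6, 9 of 27 with the trend and 0 by Holm. Granulocyte targets (7 of 24) were 11 of 24 on the mean of probe sets and 11 of 18 at a mean of at least 6, in each case 2 higher and 9 lower. By Holm they were 2. Over all genes, 6.86% were called with adjustment over all probe sets and 11.1% with 1 test per gene on the highest-mean probe set. For the other settings the share over all features is not given here, so these counts are not results about the lists alone. The cause of other shifts was not tested.

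Deviations of same-numbered CA and DMSO arrays from their group means correlated at -0.0051, 0.0315 and -0.0255. These lay within the range for differently numbered arrays, -0.097 to 0.1038. Such values cannot show whether same-numbered wells were handled together. With the replicate block, adjusted p was 0.113 for CEBPB and 0.169 for CEBPD, with 0 members called.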
